A study of Rattus norvegicus with 16 samples.

Results

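The genes described here are 46 genes of myogenic differentiation and of the contractile apparatus, read in cultured rat satellite cells treated with a nonsteroidal androgen receptor agonist (NARA). They are the regulators of myoblast differentiation and fusion, the proteins of the sarcomere, and enzymes, receptors and calcium handling proteins of muscle fibres. Members were listed by gene symbol, and no signal minimum was set for them. A probe set, the group of probes that reports a transcript on this array, counted as a member when the array annotation gave it exactly 1 of the 46 symbols. This rule found 45 of the 46 genes in 83 probe sets, out of 14217 genes and 31042 probe sets on the array. The missing gene was Actc1, the cardiac alpha-actin gene, whose probe sets are annotated jointly with Acta2, the smooth muscle alpha-actin gene.

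Satellite cells are the stem cells of skeletal muscle. On leaving quiescence they proliferate as myoblasts, and when they differentiate, transcription factors of the MyoD family (Myod1, Myog, Myf6), working with MEF2 factors, switch on the genes of the sarcomere, and the cells fuse into multinucleate fibres. In the sarcomere, myosin thick filaments pull on actin thin filaments, and tropomyosin with the troponin complex lets them do so when calcium rises. Tropomyosin genes are also active outside muscle, because their non-muscle isoforms coat the actin cables of most cells.

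Levator ani satellite cells (LASCs) of the rat, at passage 5, were labelled as treated with 10 nM NARA for 48 h, with vehicle (0.2% DMSO) for 48 h, with NARA for 4 h, or with vehicle for 4 h. All 4 groups were kept in growth medium in which serum had been replaced by charcoal-stripped serum, which is depleted of steroids. The levator ani is a muscle of the rat pelvis that grows in response to androgens. Replicates are called biological in the titles, but no separate culture or animal is named for them, and p-values therefore reflect a spread between arrays that may be technical. The authors hybridised 4 arrays a group and left out 3 of the 16 as outliers. The 13 kept arrays were 4 of NARA 48 h, 3 of vehicle 48 h, 2 of NARA 4 h and 4 of vehicle 4 h.

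Values are MAS5 signals, the array maker's linear measure of brightness, which the authors scaled to the same trimmed mean on every array. A probe set whose signal averaged 300 or more in the 13 arrays is called expressed, and one below it is called near background. The median signal of an array lay between 539 and 613. Brightness also depends on the probes. Groups are therefore compared within a probe set, and neither the cut at 300 nor the mean signals rank genes by amount of transcript. The 13 arrays correlated with each other at 0.928 to 0.962 over expressed probe sets. The arrays left out correlated with them at 0.583 to 0.603 for NARA 4 h replicate 1, 0.560 to 0.585 for NARA 4 h replicate 4 and 0.916 to 0.935 for vehicle 48 h replicate 1. In NARA 4 h replicates 1 and 4, genes of plasma proteins made in liver were bright, with 191486 and 288154 for albumin (Alb), against a mean of 616 in the 13 arrays, while Alb was at 827 in vehicle 48 h replicate 1. The defining satellite cell genes Pax7 and Myf5 and the surface marker Cd34 were not analysed here. Of the other 11 satellite cell markers 10 were expressed, among them the adhesion gene Cdh15 with a mean of 1275. All 12 fibroblast markers and all 10 smooth muscle markers were expressed as well, so the labelled cell type was not told apart from fibroblasts by these markers. In RNA of a whole culture, fewer cells of a type and less RNA per cell cannot be told apart.

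The promoters of 3 members are shown because these genes carry the findings that follow. Tpm1, a tropomyosin gene, was the member gene that changed with NARA. Among the MyoD family genes read here (Myod1, Myog and Myf6), Myog was the expressed one. Acta1, the skeletal alpha-actin gene, stands for the sarcomere genes that lay near background. Each sequence is from RefSeq on build GRCr8, runs 5′ to 3′ on the strand of the gene, and covers 250 bases before and 50 bases after the annotated start. Capitals mark the E-box CANNTG, the motif read by the MyoD family, and the CArG box, the motif read by serum response factor.
Tpm1 at chr8:76543366-76543665, minus strand: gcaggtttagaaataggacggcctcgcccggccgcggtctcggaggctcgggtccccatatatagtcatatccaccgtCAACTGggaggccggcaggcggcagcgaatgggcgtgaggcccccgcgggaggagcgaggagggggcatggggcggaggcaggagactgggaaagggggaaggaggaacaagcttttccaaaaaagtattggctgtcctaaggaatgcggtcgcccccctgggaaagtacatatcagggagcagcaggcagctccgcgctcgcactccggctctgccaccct
Myog at chr13:48297226-48297525, plus strand: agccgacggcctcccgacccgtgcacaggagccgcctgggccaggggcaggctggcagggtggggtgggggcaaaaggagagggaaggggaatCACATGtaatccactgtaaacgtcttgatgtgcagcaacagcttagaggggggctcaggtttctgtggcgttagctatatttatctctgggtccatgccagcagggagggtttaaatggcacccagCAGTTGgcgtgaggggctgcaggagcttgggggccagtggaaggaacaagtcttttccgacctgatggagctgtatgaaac
Acta1 at chr19:68784145-68784444, minus strand: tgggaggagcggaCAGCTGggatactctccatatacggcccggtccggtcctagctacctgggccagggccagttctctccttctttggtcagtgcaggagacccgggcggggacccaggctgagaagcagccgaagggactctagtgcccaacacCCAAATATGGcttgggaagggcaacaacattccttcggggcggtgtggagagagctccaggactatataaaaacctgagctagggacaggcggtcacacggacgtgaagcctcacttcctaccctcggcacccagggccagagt
The Tpm1 window held 1 E-box, CAACTG, 172 bases before the start, the Myog window held 2, CACATG and CAGTTG at 157 and 31 bases before it, and the Acta1 window held CAGCTG at 237 bases and the CArG box CCAAATATGG at 94 bases before it. Both motifs were searched on both strands, where each pattern reads the same, and they did not overlap in these windows. RefSeq windows were matched for 37 of the 45 genes. An E-box was found in 28 of the 37 (75.7%), against 72.1% of all 33469 promoters, and a CArG box in 4 of the 37 (10.8%), against 1.64% of all. Among the matched members, an E-box lay in 10 of the 17 expressed genes (58.8%) and in 18 of the 20 near background (90%). These matches are descriptions of letters in a window and were not tested as binding sites.

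Whether a gene was expressed differed by role. All tropomyosin genes and 5 of 7 troponin genes were expressed, while 10 of the 12 thick filament genes and 5 of the 8 thin filament and Z-disc genes lay near background. Of the 45 genes, 21 (46.7%) had at least 1 expressed probe set and 24 had none, against 79.4% of all genes on the array with an expressed probe set. Of the 83 probe sets 49 were expressed (59%), against 67.3% of all probe sets on the array. Among the 34 below the minimum, 22 had a mean signal under 150 and 12 lay between 150 and 300. The values just above the minimum were 335 for Myl2, a regulatory myosin light chain, and 347 for a second probe set of Mef2c, and those just below it were 286.5 for Myl1, an essential myosin light chain, and 286 for Mymk, the muscle fusion protein myomaker. The median residual SD on the log2 scale was 0.28 for the 49 expressed members, against 0.25 for all expressed probe sets. It was 0.56 for the 34 members near background, against 0.66 for all probe sets near background, so differences in dim genes are less precise. Of 7 genes of plasma proteins made in liver, 5 also passed the minimum in the 13 arrays, among them Alb at 616 and Serpina1 at 891. A mean above 300 therefore does not by itself show that these cells made the transcript.

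**Figure D1:**
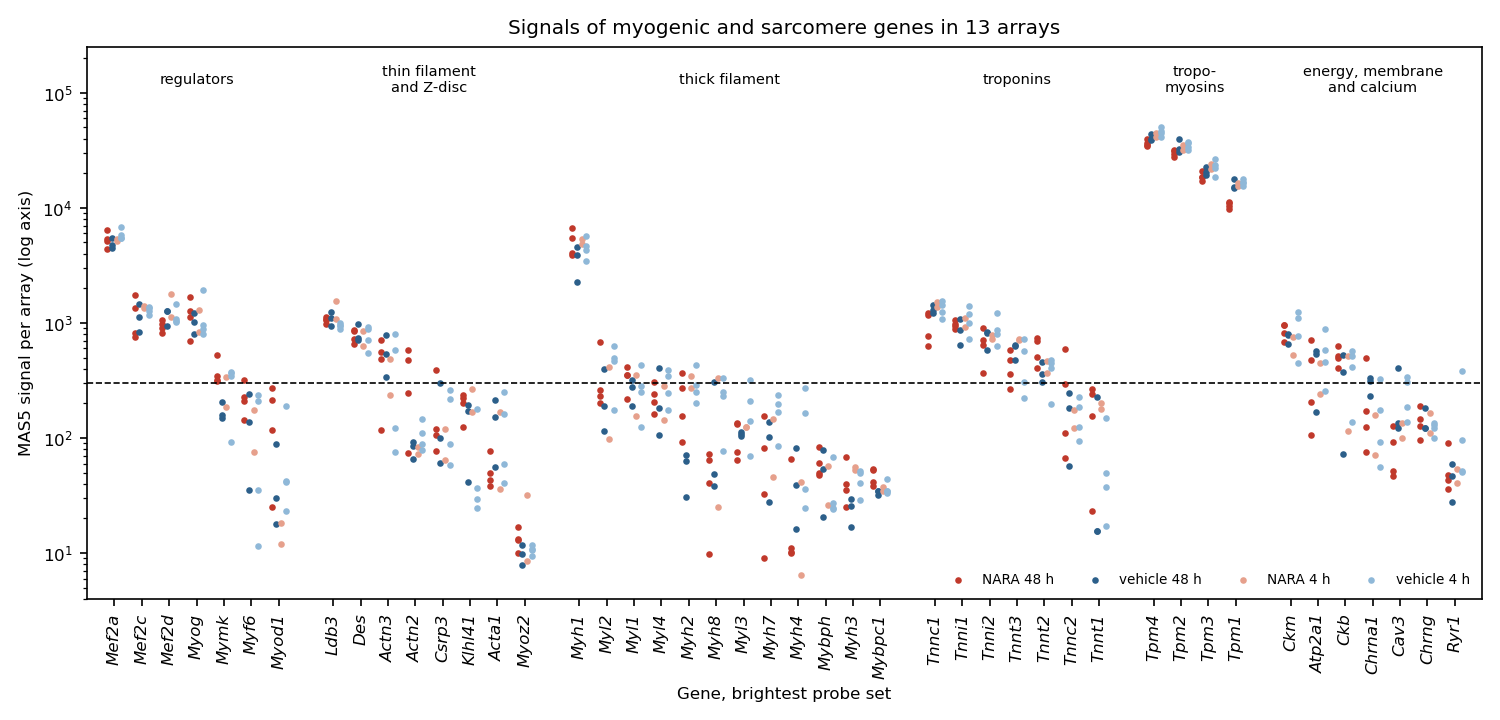
MAS5 signal (log axis) of the brightest probe set of each of the 45 genes in the 13 arrays, grouped by role, with 1 point an array coloured by group and a dashed line at the minimum signal of 300. The 4 tropomyosin genes lie well above the line in every array, while 10 of the 12 thick filament genes have means below it.

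Among the regulators, 4 of 7 genes were expressed. Myog, which drives terminal differentiation, had signals of 1118, 701, 1673 and 1264 in NARA 48 h arrays, against 800.3, 1223 and 1021 in vehicle 48 h arrays, with 841 and 1298 in NARA 4 h arrays, against 889, 959, 1929 and 800.3 in vehicle 4 h arrays. Its groups overlapped at both times, and the highest array was a vehicle 4 h one. The MEF2 genes, whose products act with the MyoD family, were expressed too, with mean signals of 5392 for Mef2a, 1231 for Mef2c and 1134 for Mef2d in their brightest probe sets. Myod1, which commits cells to the muscle lineage, averaged 83.9 and Myf6, a late member of the same family, averaged 158. Mymk, needed for fusion, averaged 286.

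Of the 8 thin filament and Z-disc genes on the array, 3 were expressed. Ldb3, a scaffold of the Z-disc that anchors thin filaments, had 4 expressed probe sets with means of 369 to 1072 and 2 below 100. Des, the muscle intermediate filament desmin, averaged 774, and Actn3, the alpha-actinin of fast fibres, averaged 449.9. The alpha-actin Acta1, the main actin of adult skeletal muscle, averaged 104, Actn2 169.9, and Myoz2, a Z-disc protein that binds calcineurin, averaged 12.7. The 5 probe sets shared by Actc1 and Acta2 had mean signals of 141 to 891, which cannot be assigned to either gene.

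Of the 12 thick filament genes, 2 were expressed, Myh1 and Myl2. Myh1, the fast myosin heavy chain of type IIx fibres, was bright in all 5 of its probe sets, with means of 2131 to 4543. The other heavy chain genes lay near background, with 219 for Myh2, 141 for Myh8, 60.1 for Myh4, 40 for the embryonic form Myh3 and 109 for the brighter probe set of the slow form Myh7. The 1 probe set that the annotation gives to Myh2, Myh1 and Myh8 together averaged 303. Heavy chain genes are similar in sequence, and their probe sets can share transcripts. In the left-out arrays of high Alb, NARA 4 h replicates 1 and 4, Myh1 probe set 1377720_x_at had 24178.6 and 33575.3. The 13 kept arrays had 3059 to 5330. The source of the Myh1 signal is uncertain and was not tested. Of the 4 light chain genes Myl2 averaged 335, Myl1 286.5, Myl4 246 and Myl3 132. The Myl2 probe set at 335 ran from 98 to 688 in the 13 arrays, and a second Myl2 probe set, 1388200_at, averaged 34.4.

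Of the 7 troponin genes 5 were expressed. Tnnc1, the calcium binding subunit of slow and cardiac muscle, averaged 1224. The inhibitory subunits Tnni1 and Tnni2 averaged 987 and 759.7, and the tropomyosin binding subunits Tnnt3 and Tnnt2 averaged 514 and 450.4. A second Tnnt2 probe set, 1367592_at, lay near background at 136. Tnnc2 of fast muscle and Tnnt1 of slow muscle lay near background at 190.2 and 122. All 4 tropomyosin genes were expressed, in 19 of their 23 probe sets, with means of 14477 for Tpm1, 33023 for Tpm2, 21127 for Tpm3 and 41350.0 for Tpm4 in the brightest probe set of each.

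Among genes of energy supply, membrane and calcium handling, 3 of 7 were expressed. These were Ckm and Ckb, the muscle and brain forms of creatine kinase, with means of 806 and 407, and Atp2a1, the calcium pump of fast fibres, with 434. The acetylcholine receptor subunits Chrna1 and Chrng, the caveolin Cav3 and the calcium release channel Ryr1 averaged 201, 135, 168 and 79.1.

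Differences between groups were taken as differences in log2(signal + 50) and tested with limma, with p-values adjusted for all 20904 expressed probe sets (Benjamini-Hochberg) and a threshold of 0.05. After 48 h, 2 of the 49 expressed member probe sets were lower with NARA and 0 were higher. Both belong to Tpm1. Lower calls made up 1.44% of all probe sets tested and calls in either direction 2.80%, against 4.08% of the members. The median difference was -0.07 for the members and 0.00 for all probe sets tested. Of the 49 members 21 lay above 0 (42.9%), against 49.5% of all.

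Tpm1 probe set 1370288_a_at had signals of 3229.6, 2466, 2851 and 2756 in NARA 48 h arrays, against 5256, 4939 and 5556 in vehicle 48 h arrays. The groups did not overlap, and every NARA 48 h array also lay below all 6 arrays of the 4 h groups. The means were 2826 ± 315 (SD, n = 4) with NARA and 5250.2 ± 309 (SD, n = 3) with vehicle, a log2 difference of -0.89 (SE 0.109, 95% interval -1.13 to -0.65, adjusted p = 0.00106), or 1.85-fold lower with NARA.
Tpm1 probe set 1370287_a_at had signals of 11321, 11005, 10396 and 9779.7 in NARA 48 h arrays, against 17884, 15036 and 14842 in vehicle 48 h arrays. These groups did not overlap either. The means were 10626 ± 682 (SD, n = 4) with NARA and 15921 ± 1703 (SD, n = 3) with vehicle, a log2 difference of -0.58 (SE 0.104, 95% interval -0.81 to -0.35, adjusted p = 0.0118), or 1.49-fold lower with NARA. Without vehicle 48 h replicate 2, the brightest array of its group, the difference was -0.49 with an adjusted p of 0.0527. With vehicle 48 h replicate 1 put back both Tpm1 probe sets passed, at -0.74 for 1370288_a_at (SE 0.140, adjusted p = 0.0103) and -0.52 for 1370287_a_at (adjusted p = 0.0137). With the 2 NARA 4 h arrays of high Alb put back as well, neither passed, at the same differences but with an SE of 0.638 for 1370288_a_at (adjusted p = 1 for both). In a fit of the 48 h groups alone 1370287_a_at also missed the threshold, with an adjusted p of 0.105.

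The other expressed Tpm1 probe sets did not pass the test. Probe set 1368724_a_at had 967, 905, 963 and 909.5 in NARA 48 h arrays, against 1001, 1359 and 908 in vehicle 48 h arrays. Probe set 1395794_at had 983, 1688, 1082 and 1419 in NARA 48 h arrays, against 1055, 1116 and 1205 in vehicle 48 h arrays. In both the groups overlapped. Tpm1 transcripts differ by alternative promoters and splicing, and an identifier ending in _a marks a probe set shared by several transcripts of 1 gene. Which Tpm1 transcript each probe set reads was not determined.

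**Figure D2:**
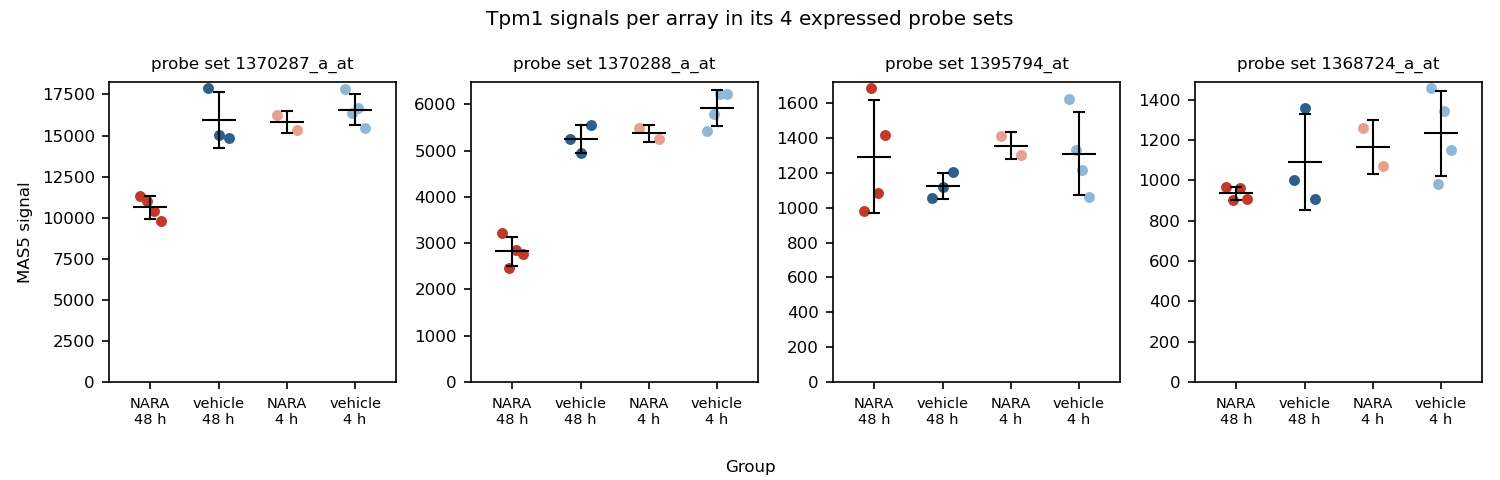
MAS5 signal of the 4 expressed Tpm1 probe sets in each of the 13 arrays by group, with bars for the mean and SD of 4 NARA 48 h, 3 vehicle 48 h, 2 NARA 4 h and 4 vehicle 4 h arrays. In 1370287_a_at and 1370288_a_at all NARA 48 h points lie below every point of the other 3 groups, and in the other 2 probe sets NARA and vehicle overlap at each time.

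Tropomyosins are also made by fibroblasts and smooth muscle, so markers of those cells were read in the same arrays. Summed over the 10 smooth muscle markers, the signal was 52777 to 62568 in NARA 48 h arrays, against 51201 to 54688 in vehicle 48 h arrays, and none of the 10 passed the test. Cald1 carried most of that sum, with a mean of 42620 with NARA and 32926 with vehicle, while Tagln had 5579 with NARA and 8547 with vehicle (log2 difference -0.62, adjusted p = 0.233). Summed over the 12 fibroblast markers it was 592430 to 719570 with NARA, against 558060 to 679030 with vehicle, and it was carried by collagens, Fn1 and S100a4. Both sums overlapped between the groups at 48 h. Of the 12 fibroblast markers 2 were lower with NARA, Lum at -1.06 (adjusted p = 0.000248) and Pdgfra at -0.75 (adjusted p = 0.0454). Of all probe sets tested 1.44% were called lower. Dcn at -0.56 and Postn at -0.59 did not pass (adjusted p = 0.0822 and 0.147). Col3a1 at 0.39 and Col1a2 at 0.23 pointed the other way and did not pass either (adjusted p = 0.124 and 0.446). Over the 12 fibroblast markers the median log2 difference was -0.04. The sum of the 11 satellite cell markers did not overlap between the groups, at 11532 to 14322 with NARA, against 19204 to 23032 with vehicle, but 2 genes carried that difference. Cxcr4 had a mean of 590.0 with NARA and 4923 with vehicle, and Sdc4 had 6362 with NARA and 10613 with vehicle, and both passed the test as lower. The median log2 difference of the expressed satellite cell markers was -0.08, with Itga7 at 0.95 (adjusted p = 0.212) and Ncam1 at 0.63 (adjusted p = 0.223). The part of these markers in the Tpm1 difference was not tested.

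The other tropomyosins were close between the groups at 48 h. Tpm2, the beta-tropomyosin, had 31189.5, 31518, 29453 and 27509 in NARA 48 h arrays, against 39866, 32167 and 30464 in vehicle 48 h arrays. The groups overlapped, with a log2 difference of -0.18 (SE 0.117, 95% interval -0.44 to 0.07, adjusted p = 0.491). Of the 19 expressed tropomyosin probe sets 15 had a difference below 0 at 48 h, with a median of -0.16. Of all 20904 probe sets tested 10565 did. Several of the 19 report the same gene and are not independent of each other, so this is a description with no test. Tpm3 probe set 1387617_at pointed the other way, with 2926, 2530.3, 2582 and 3555 in NARA 48 h arrays, against 994, 1575 and 3178 in vehicle 48 h arrays. It did not pass the test (log2 difference 0.73, SE 0.317, adjusted p = 0.283), but without vehicle 48 h replicate 4, the bright array of its group, the difference was 1.17 with an adjusted p of 0.0353.

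The differentiation genes that could be read did not pass the test at 48 h. For Myog, with the signals given above, the log2 difference was 0.18 (SE 0.330, 95% interval -0.55 to 0.90, adjusted p = 0.848). For Mef2a probe set 1383093_at, which had 5411, 6406, 4347 and 5127 with NARA and 4459.6, 4746 and 5427 with vehicle, it was 0.12 (SE 0.141, 95% interval -0.19 to 0.42, adjusted p = 0.750). For Des, with 718, 864, 851 and 650.0 with NARA and 984, 738 and 715 with vehicle, it was -0.07 (SE 0.190, 95% interval -0.48 to 0.35, adjusted p = 0.905). In all 3 genes the NARA and vehicle arrays overlapped.

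Among the remaining sarcomere genes, Myh1 probe set 1383162_at had 3461, 4202, 3552 and 4318 in NARA 48 h arrays, against 2579, 2245 and 3605 in vehicle 48 h arrays. This was a log2 difference of 0.48 (SE 0.184, adjusted p = 0.216), with 1 vehicle array inside the NARA range. Tnnt2, the cardiac and embryonic troponin T, had 703, 741, 509 and 409 in NARA 48 h arrays, against 362, 458 and 309 in vehicle 48 h arrays, a log2 difference of 0.57 (SE 0.275, adjusted p = 0.347). Tnnc1 had 1231, 629, 1169 and 774 in NARA 48 h arrays, against 1422, 1218 and 1299 in vehicle 48 h arrays, a log2 difference of -0.49 (SE 0.213, adjusted p = 0.279). In all of these probe sets the groups overlapped. Ckb, which supplies ATP from creatine phosphate, had 408, 499, 628 and 521 in NARA 48 h arrays, against 522, 72.4 and 374 in vehicle 48 h arrays, a log2 difference of 0.85 (SE 0.577, adjusted p = 0.525) that rests on the low vehicle array. The 2 Tpm1 probe sets were the only ones among the 49 whose groups did not overlap. They made up 4.08% of the members, where the groups of 14.7% of all probe sets tested did not overlap and 7.53% lay wholly lower with NARA.

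Members near background were fitted without the signal minimum, and none passed the test at 48 h, with 0.134 as the smallest adjusted p among them. Mymk had 318, 311, 523 and 345 in NARA 48 h arrays, against 149, 207 and 159 in vehicle 48 h arrays, groups that did not overlap, but vehicle 4 h arrays ran from 92.8 to 377. Myh2 had 365, 156, 92.8 and 274 in NARA 48 h arrays, against 63, 30.7 and 71.3 in vehicle 48 h arrays, while vehicle 4 h arrays reached 430.0. In Myh2 the vehicle 48 h arrays lay below all other kept arrays. Actn2, the alpha-actinin of the Z-disc, had 247, 74.2, 583 and 481 in NARA 48 h arrays, against 92, 66.1 and 84.9 in vehicle 48 h arrays, and here 3 NARA arrays stood above all others. Other dim members pointed the other way. Cav3 had 91.8, 51.3, 128 and 47.1 in NARA 48 h arrays, against 406, 134 and 123 in vehicle 48 h arrays. Acta1 averaged 52.3 with NARA and 141 with vehicle at 48 h. In both of these genes the groups overlapped. The share of all dim probe sets whose groups did not overlap was not computed.

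**Figure D3:**
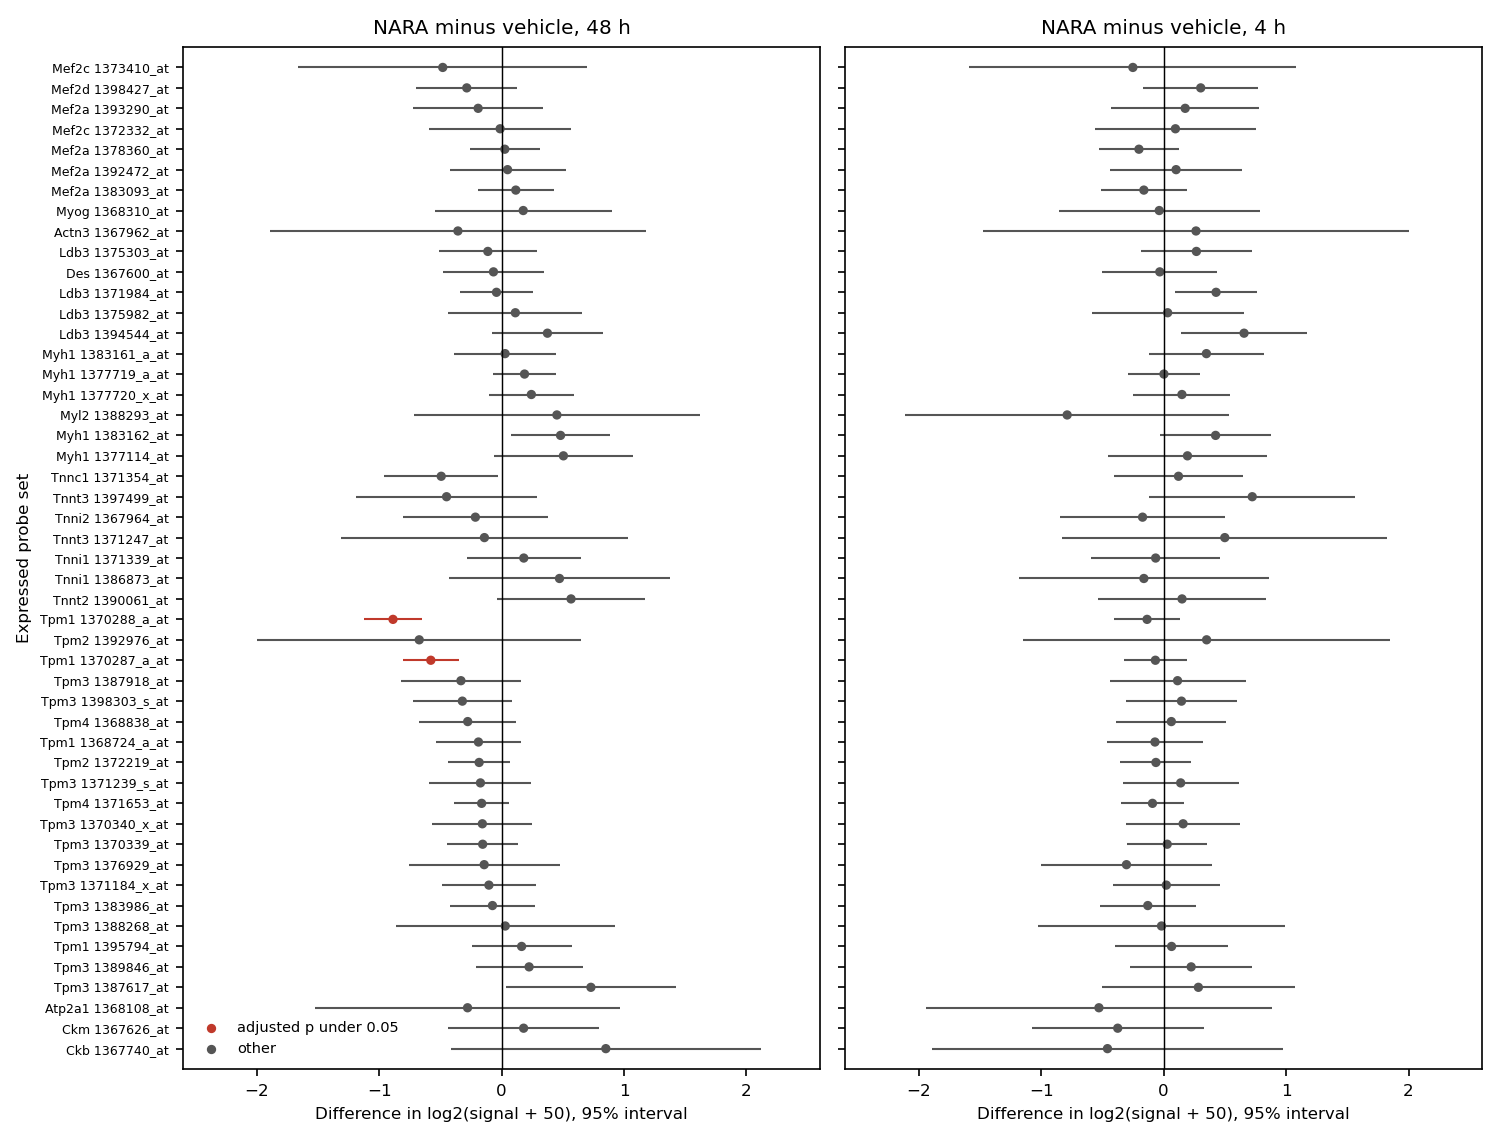
Difference in log2(signal + 50) between NARA and vehicle at 48 h (left) and 4 h (right) for the 49 expressed member probe sets, ordered by role, with 95% intervals from limma and red for an adjusted p under 0.05. The 2 red points are Tpm1 probe sets at 48 h, at -0.89 and -0.58, and no interval at 4 h is red.

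After 4 h, 0 of the 49 members passed the limma test, as did 0% of all probe sets. At an unadjusted p under 0.05 there were 2 members, against 4.75% of all probe sets, or 4.08% of the members. With 2 NARA arrays at this time, groups that do not overlap are common. The NARA arrays lay wholly above the vehicle arrays in 4 of the 49 members (8.16%), where 7.32% of all probe sets did, and wholly below them in 1 (2.04%), where 6.96% of all did. Of the 4 higher probe sets 3 belong to Ldb3.
Ldb3 probe set 1371984_at had 1078 and 1546 in NARA 4 h arrays, against 989, 946, 891 and 964 in vehicle 4 h arrays, a log2 difference of 0.43 (SE 0.153, adjusted p = 0.893). Ldb3 probe set 1394544_at had 347 and 421 in NARA 4 h arrays, against 229, 276, 256 and 153 in vehicle 4 h arrays, a log2 difference of 0.66 (SE 0.235, adjusted p = 0.894). Ldb3 probe set 1375303_at had 782 and 725 in NARA 4 h arrays, against 587, 604, 652 and 628 in vehicle 4 h arrays. These 3 probe sets report 1 gene and are not independent of each other.
The 1 lower member was Mef2a probe set 1383093_at, with 5405 and 5114 in NARA 4 h arrays, against 6883, 5845, 5480.2 and 5444 in vehicle 4 h arrays. The lower members of smallest p were Mef2a probe set 1378360_at, with 3381 and 3234 in NARA 4 h arrays, against 4746, 3544, 3313 and 3780.1 in vehicle 4 h arrays (log2 difference -0.20, adjusted p = 1), and Myl2, with 98 and 417 in NARA 4 h arrays, against 491, 464, 173 and 631 in vehicle 4 h arrays (log2 difference -0.79, SE 0.603, adjusted p = 1). The groups overlapped in both of these.

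Tpm1 was not separated by treatment at 4 h. Probe set 1370288_a_at had 5499 and 5246 in NARA 4 h arrays, against 5417, 5792, 6215 and 6229 in vehicle 4 h arrays, a log2 difference of -0.14 (adjusted p = 1). Probe set 1370287_a_at had 16280.2 and 15339 in NARA 4 h arrays, against 17808, 16397, 16657 and 15461 in vehicle 4 h arrays, a log2 difference of -0.07 (adjusted p = 1). The NARA effect at 48 h minus that at 4 h was -0.75 for 1370288_a_at (adjusted p = 0.151) and -0.51 for 1370287_a_at (adjusted p = 0.371), so a difference between the times was not shown for either. In this comparison 0 of the 49 members passed the limma test, against 0.124% of all probe sets, and 4 had an unadjusted p under 0.05 (8.16%), against 9.00% of all. On the higher side, the members of smallest p were Myl2 with a difference of 1.24 (SE 0.805, adjusted p = 0.702) and Ckb with 1.31 (SE 0.872, adjusted p = 0.708).

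Within vehicle, 48 h against 4 h, 0 of the 49 members passed the limma test, as did 0% of all probe sets. At an unadjusted p under 0.05 there was 1 member (2.04%), against 7.35% of all. Groups that did not overlap numbered 3 (6.12%), against 8.90% of all. The member of smallest p was Ldb3 probe set 1394544_at, with 446, 302 and 365 in vehicle 48 h arrays, against 229, 276, 256 and 153 in vehicle 4 h arrays (log2 difference 0.60, SE 0.208, adjusted p = 0.586). Its other probe set 1371984_at lay at 0.19 (adjusted p = 0.787). On the lower side Mef2a probe set 1383093_at lay at -0.27 (SE 0.141, adjusted p = 0.699) and Myh1 probe set 1377720_x_at at -0.27 (SE 0.159, adjusted p = 0.733). The Tpm1 probe sets lay at -0.17 for 1370288_a_at (adjusted p = 0.762) and -0.06 for 1370287_a_at (adjusted p = 0.927).

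Within NARA, 48 h against 4 h, 1 of the 49 members passed the test, Tpm1 probe set 1370288_a_at, which was lower at 48 h. Lower calls made up 2.04% of the members, against 0.297% of all probe sets. It averaged 2826 ± 315 in the 4 NARA 48 h arrays, against 5373 ± 179 in the 2 NARA 4 h arrays (mean ± SD), a log2 difference of -0.92 (SE 0.124, adjusted p = 0.00571), or 1.89-fold lower at 48 h. The call was lost without NARA 4 h replicate 2, at an adjusted p of 0.0686, which leaves 1 array in that group, assumed to vary like the other groups. Tpm1 probe set 1370287_a_at averaged 10626 ± 682 in the NARA 48 h arrays, against 15810.0 ± 666 in the NARA 4 h arrays, a log2 difference of -0.57 (SE 0.117, adjusted p = 0.0543), which did not pass.

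The 48 h arrays lay wholly below the 4 h arrays within NARA in 13 of the 49 members (26.5%), where 10.9% of all probe sets did. Of these 13 probe sets 10 belong to tropomyosins, so that 10 of the 19 expressed tropomyosin probe sets (52.6%) and 3 of the other 30 members (10%) lay wholly lower at 48 h. The 10 are 3 of Tpm1, 1 of Tpm2, 4 of Tpm3 and both of Tpm4. The tropomyosins were set apart after the values had been seen, so this is a description with no test.
In Tpm4, a tropomyosin of non-muscle cells, probe set 1371653_at had 40033, 36771, 35199 and 34446 in NARA 48 h arrays, against 44672 and 40897 in NARA 4 h arrays. In Tpm2 the values were 31189.5, 31518, 29453 and 27509 in NARA 48 h arrays, against 34970.5 and 32024 in NARA 4 h arrays. In both genes the 4 h arrays were the higher ones. In Tpm3 probe set 1387918_at the values were 5857, 2939, 3519 and 5033 in NARA 48 h arrays, against 7766 and 6214 in NARA 4 h arrays. In Tpm3 probe set 1370339_at they were 20983, 18581, 16949.5 and 18415 in NARA 48 h arrays, against 24262 and 21882 in NARA 4 h arrays.
Over the 10 probe sets the log2 difference ran from -0.92 to -0.16, and of the 19 only Tpm1 probe set 1370288_a_at passed the test. The median log2 difference over the 19 tropomyosin probe sets was -0.30 within NARA and -0.12 within vehicle. Within vehicle 1 of the 19 (5.26%) lay wholly lower at 48 h, where 4.62% of all probe sets did. Groups of 4 and 2 arrays lie apart more readily than groups of 3 and 4, so the 2 counts are not set against each other. Whether the time courses of the 19 differed between NARA and vehicle was tested probe set by probe set, and 0 passed, with both Tpm1 probe sets 1370287_a_at and 1370288_a_at under an unadjusted p of 0.05. Several of these probe sets can read more than 1 transcript, as their suffixes mark, with _a limited to 1 gene and _s and _x not. Probe sets of 1 gene are not independent of each other. The smooth muscle marker sum was 52777 to 62568 in NARA 48 h arrays, against 61141 to 69331 in NARA 4 h arrays, and it was 51201 to 54688 in vehicle 48 h arrays, against 56799 to 69275 in vehicle 4 h arrays. Within vehicle the sums did not overlap. Tagln lay at -1.16 within NARA (adjusted p = 0.104) and at -0.65 within vehicle (adjusted p = 0.631). Acta2 lay at -0.66 within NARA (adjusted p = 0.198) and at -0.32 within vehicle (adjusted p = 0.708). Myl9, Cnn1 and Myocd were also lower at 48 h within NARA, at -0.62, -0.34 and -0.19. Myh11, Lmod1, Actg2, Smtn and Cald1 were higher, at 0.31, 0.21, 0.21, 0.17 and 0.11. Over the 10 smooth muscle markers the median log2 difference was -0.04 within NARA and -0.51 within vehicle. The part of these markers in the tropomyosin values was not tested.

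**Figure D4:**
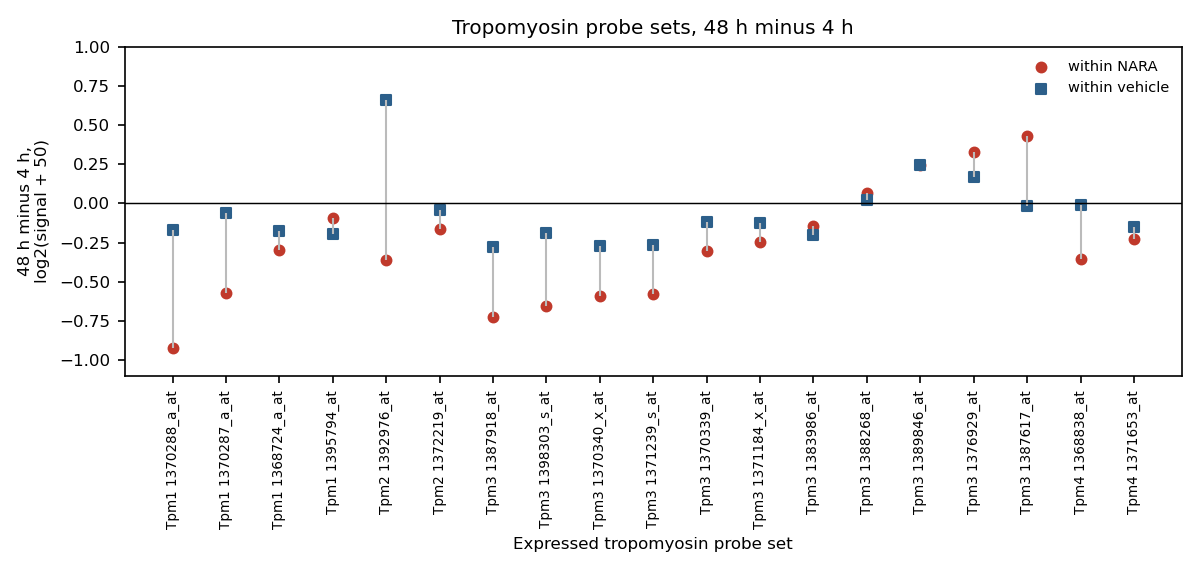
Difference in log2(signal + 50) of 48 h against 4 h within NARA (circles) and within vehicle (squares) for the 19 expressed tropomyosin probe sets, joined by a line per probe set. In each treatment 15 of the 19 lie below 0, with the lowest value at -0.92 for Tpm1 probe set 1370288_a_at within NARA. Of all 20904 probe sets tested, 10690 lay below 0 within NARA and 10279 within vehicle.

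Outside tropomyosin, 3 members lay wholly lower at 48 h within NARA, namely Mef2d probe set 1398427_at, Tnnt3 probe set 1397499_at and Tnnc1. Tnnc1 had 1231, 629, 1169 and 774 in NARA 48 h arrays, against 1362 and 1509 in NARA 4 h arrays. Tnnt3, the troponin T of fast muscle, had 268, 479, 360.2 and 582 in NARA 48 h arrays, against 718 and 717 in NARA 4 h arrays. None of these 3 passed the test. On the higher side, the members of smallest p were Mef2a probe set 1378360_at, at 0.21 (SE 0.149, adjusted p = 0.655), and Tnnt2, at 0.44 (SE 0.311, adjusted p = 0.647).

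Other genes of muscle contraction and its upkeep, 63 genes in a wider list that shares none with the members, were also read. Of the 57 on the array 36 were expressed, against 79.4% of all genes on the array. At 48 h 1 of the 36 was higher and 1 was lower with NARA, where 1.36% and 1.44% of all probe sets tested were. Trim63, a ubiquitin ligase that marks myosin and other sarcomere proteins for breakdown, had 5522, 6562, 5333 and 6426 in NARA 48 h arrays, against 2789, 1909.8 and 1954 in vehicle 48 h arrays (log2 difference 1.42, adjusted p = 0.00108). Cdkn1c, a cell cycle inhibitor active in differentiating muscle, had 251, 285, 172 and 289 in NARA 48 h arrays, against 444, 514 and 619 in vehicle 48 h arrays (log2 difference -0.95, adjusted p = 0.0488). In both genes the groups did not overlap, as in 14.7% of all probe sets tested. Within NARA, 48 h against 4 h, 1 of the 36 passed, Trim63, which was higher at 48 h (log2 difference 1.21, SE 0.199, adjusted p = 0.0207). Of all probe sets tested 0.488% were called higher in that comparison. Titin (Ttn), the giant spring of the sarcomere, and nebulin (Neb), the ruler of the thin filament, were expressed with means of 569.7 and 363, and neither passed the test.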

How the data were processed

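RNA of 16 samples was hybridised to Affymetrix Rat Genome 230 2.0 arrays. Per the labels' protocols RNA was extracted with Trizol, while the series' design text names a column kit. The deposited intensity values are linear MAS5 signals according to the submitters' processing notes, and in the design text the authors scaled them to a trimmed mean of 1500 and left out the 3 arrays named above. The number of arrays limits the precision, and detection calls were not used. Of 31099 rows 57 were Affymetrix controls and were set aside. The platform annotation gave 20826 of the others 1 symbol, 436 several and 9780 none, and 0 symbols were updated through RefSeq.

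From the deposited signals log2(signal + 50) was computed, an offset that understates changes where signals are dim. The 20904 expressed probe sets were fitted with limma 3.58.1 (lmFit, eBayes) in R 4.3.3, with all 4 groups sharing 1 estimate of spread (9 residual and 2.4 prior degrees of freedom). P-values are two-sided. The procedure was tested on simulated data with independent noise, for NARA against vehicle at 48 h only. Changes as small as those of Tpm1 were not simulated, and neither were the other comparisons. 0 pairs of arrays held identical values.

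Members, roles and marker lists were chosen with earlier results of these data known. Differences are printed for members past the threshold, for a fixed set of brightest probe sets (Myog, Des, Mef2a, Ckb, Tpm1, Tpm2) at 48 h, for the members of smallest p in each comparison and for the wider muscle genes past the threshold. Other members are given by signals alone. Alternatives covered the offset, the signal minimum, the arrays, quantile normalization, limma's trended and robust priors, the groups in the fit, the replicate block and each array left out in turn. The replicate numbers did not pair the arrays.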

Additional observations from a re-analysis of the deposited data

Results flagged for a closer look

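In groups of 4 arrays, each expressed member gene's brightest probe set was examined for an array far from the others, which gave 42 group values, of which 1 stood apart. Chance gives about 1 in 20. Mef2d probe set 1398427_at had a signal of 1467.77 in vehicle 4 h replicate 3, where the other 3 arrays lay between 1012 and 1075.

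The arrays the authors left out were examined for member signals more than 4 times the highest vehicle array, and 6 of 249 values met this. Myh1 probe set 1377720_x_at had 24178.6 in NARA 4 h replicate 1 and 33575.3 in NARA 4 h replicate 4, against 3059 to 4951 in the vehicle arrays. In NARA 4 h replicate 4, 3 more Myh1 probe sets were high, with 19122.9 for 1383162_at (2245 to 3605 in vehicle arrays), 22518.4 for 1383161_a_at (2145 to 3141) and 13413.2 for 1377719_a_at (1781 to 2318). In NARA 4 h replicate 1 these 3 had 6696, 12296 and 8347, above the vehicle arrays but not by more than 4 times. Tpm3 probe set 1370450_at had 1090.75 in NARA 4 h replicate 4, against 43.4 to 189.5. In the same 2 arrays Tpm2 probe set 1372219_at had signals of 323 and 56.2, against 27509 to 39866 in the 13 kept arrays.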

How the results depend on the processing

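Of 700 alternative values of the 31 named differences, 675 kept their direction and their side of the threshold, 7 lost the call, 8 gained it and 10 changed sign. The count of members called at 48 h was 2 in the values reported, 1 with only the 2 groups compared in the fit, 0 with all 16 arrays, and 1 to 3 with 1 array left out. The count for the difference between the NARA effects, 0 in the values reported, was 1 with a minimum signal of 1000 and 1 with trended and robust priors. The count within NARA, 1 in the values reported, was 2 with an offset of 200, with a minimum of 1000, after quantile normalization and with trended and robust priors, and 0 with all 16 arrays, with only the groups compared and with the replicate block, and it ran from 0 to 2 with 1 array left out (0 without NARA 4 h replicate 2). Tpm1 probe set 1370288_a_at passed at 48 h in 22 of 23 alternatives and 1370287_a_at in 20 of 23, with log2 differences of -0.95 to -0.74 and -0.63 to -0.49. With vehicle 48 h replicate 1 put back (14 arrays) both passed at 48 h (adjusted p = 0.0103 and 0.0137). With all 16 arrays, which adds the 2 NARA 4 h arrays of high Alb, both missed the threshold (adjusted p = 1), and within NARA they turned to 0.76 and 0.20, with 1370288_a_at at 461 and 500.0 in those 2 arrays. The difference between the NARA effects then turned to 1.07 and 0.32, and Ldb3 probe set 1371984_at at 4 h to -0.063. With 1 array left out, sign changes were seen in Myog at 48 h (-0.0025 to 0.40), Des at 48 h (-0.15 to 0.071) and Myl2 at 4 h (-1.62 to 0.041). The cause of these changes was not tested. Same-numbered arrays correlated at -0.036 to 0.039 in their deviations over 10 pairs, so the numbers do not pair the arrays. With the replicate block Des at 48 h was 0.017, and Tpm1 probe set 1370288_a_at within NARA was -0.96 with an adjusted p of 0.052. Numbers of arrays limit what can be shown, most of all at 4 h, and signals near background limit 34 of the 83 probe sets.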

Other observations

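Among the wider muscle genes, those of the neuromuscular junction were read in part. The receptor kinase Musk, its activator Dok7 and the receptor anchor Rapsn had mean signals of 409.9, 1228 and 895 over the 13 arrays, and the acetylcholine receptor subunits Chrnb1 and Chrnd had 308 and 438. The adult subunit Chrne lay near background at 45. Among genes of the calcium release unit, the calcium store proteins Casq1 and Casq2 had 1154 and 669.9 and the junctional protein Jph2 had 3513, while the voltage sensor Cacna1s had 34.3 and Jph1 had 42.8. None of the expressed ones passed the test between NARA and vehicle at 48 h or at 4 h.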
